A study of Macaca mulatta with 20 samples.

Results

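The comparison between 5 and 30 days after thorax irradiation follows whole blood RNA of rhesus macaques from the first week to the end of the first month. It uses 10 of the 20 arrays of the series, the 5 titled day 5 and the 5 titled day 30, and sets them against each other in pairs of the same replicate number. The animals were males that had each received a single 10 Gy dose of X-rays to the whole thorax and no mitigating drug, so that day 5 and day 30 differ in time after the same exposure. The other arrays are 5 taken before irradiation and 5 taken at day 2. Globin-depleted RNA was hybridized to a one-color Agilent array whose 60-base probes were designed on human transcripts. Of 34127 different probes, 19961 gave a signal that the scanner software marked as well above background on 5 or more of the 20 arrays, and these were tested. They carry 13586 gene symbols. The submitters state that 1 RNA was a pool of 2 animals, and its array is not named in the labels. Nor do the labels name the animal behind each array, and the sources give more animals than replicate numbers.

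Whole blood RNA is a mixture of the transcripts of neutrophils, monocytes, lymphocytes, natural killer (NK) cells, platelets and young red cells. Lymphocytes are among the most radiation-sensitive cells of the body, while platelets and red cells carry transcripts made earlier in the bone marrow, which was only partly inside the thoracic field. NK cells and cytotoxic T cells kill target cells with granules of perforin, granulysin and granzymes, and carry killer lectin-like receptors on their surface. In such a mixture, fewer cells of a type and less RNA per cell cannot be told apart. All levels below are log2 processed signals relative to the 75th percentile of the array, and all differences are day 30 minus day 5 on that log2 scale.

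Markers of the main cell types of whole blood were detected. Of the tested list members, 28 of 29 for T cells, 23 of 25 for B cells, 24 of 25 for erythroid cells, 20 of 26 for platelets and 19 of 22 for mature neutrophils were well above background on all 20 arrays. The share of spots well above background was 55.9% to 58.8% on 9 of the 10 arrays and 67.3% on that of day 5 replicate 3, which stood apart from the others. The 10 arrays lay on 5 slides, each with 1 array of each time. Day 5 RNA was always at position 3 of the slide and day 30 RNA always at position 4, so that position and time cannot be told apart.

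No single gene passed the test. With the thresholds of the study's methods, a p-value under 0.005 and a false discovery rate (FDR) under 10%, limma called 0 of 19961 probes between day 5 and day 30, and the smallest adjusted p was 0.544. A paired test that estimates the spread from each probe alone called 1 probe, TMEM88B, which was lower. Without the FDR limit, 124 probes (0.621%) had a p-value under 0.005, where 99.8 are expected with no difference at any probe. Of these, 37 were higher at day 30 (0.185% of the probes tested) and 87 were lower (0.436%). At an unadjusted p-value under 0.05 there were 1658 probes (8.31%), 506 of them higher (2.53%) and 1152 lower (5.77%), against 998.1 expected. The median difference over all probes was -0.02. A difference over 1 in size, a doubling or a halving, was found for 309 probes, 70 of them higher and 239 lower. The split between higher and lower probes depended on how the arrays were scaled. With arrays scaled to their medians, which moved the median of all probes to 0.16, 68 probes were higher and 24 lower at a p-value under 0.005, and after quantile normalization 68 were higher and 63 lower.

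**Figure D1:**
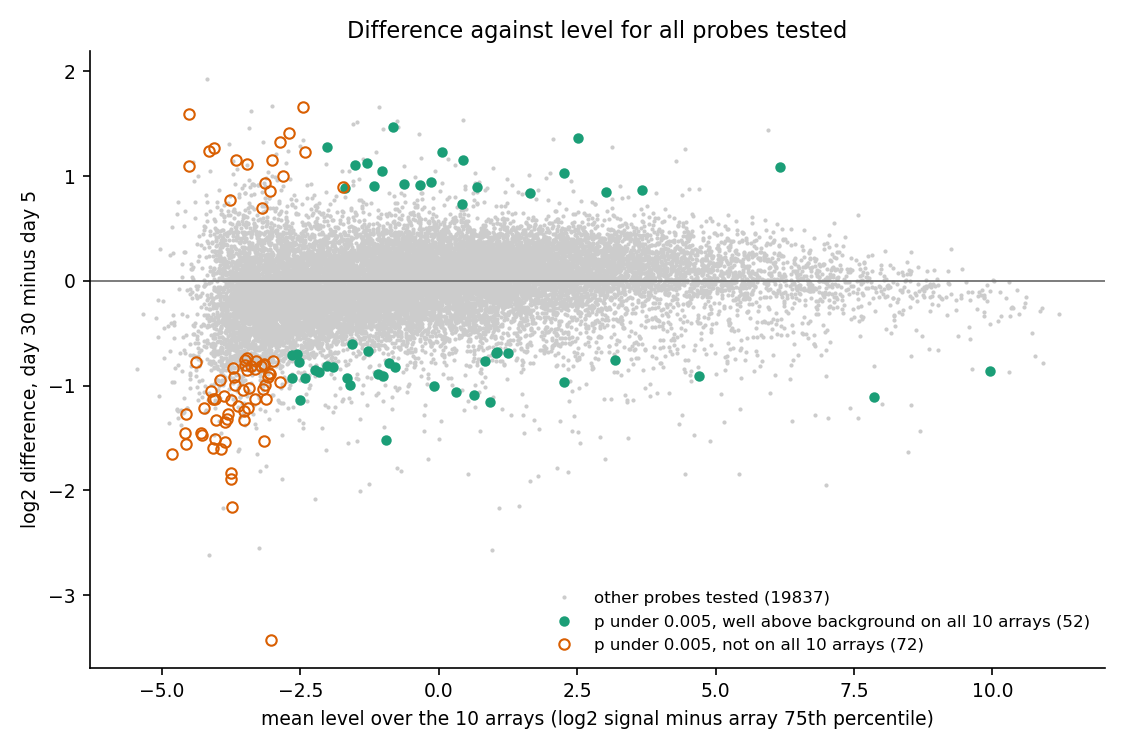
Each point is 1 of the 19961 probes, with its mean level over the 10 arrays (log2 signal minus the array's 75th percentile) on the horizontal axis and its log2 difference, day 30 minus day 5, on the vertical axis. Filled points had a p-value under 0.005 in limma and were well above background on all 10 arrays, and open points had such a p-value and were not; the open points crowd at the dim end on the lower side.

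Probes with a small p-value were dimmer than the rest on both sides. Over all probes tested, 81.3% were well above background on all 10 arrays. The same held for 20 of the 37 higher probes with a p-value under 0.005 (54.1%) and for 32 of the 87 lower ones (36.8%). Of the 87 lower probes, 17 were well above background on none of the 5 day 30 arrays, and of the 37 higher probes 1 was above it on no day 5 array.

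Of the 22 gene lists described, the one with the largest median difference on the higher side was that of NK and cytotoxic lymphocytes. Of its 27 tested genes, 25 were higher at day 30 and 2 lower, with a median difference of 0.62, against 9499 higher and 10462 lower and a median of -0.02 over all probes tested. With 1 probe for each gene, as in the list, 7179 genes were higher and 6407 lower, with a median of 0.02. After normexp background correction the list median was 0.41 and lay 0.33 above that of all probes, in place of 0.64. A p-value under 0.005 on the higher side was found for 6 of the 27, where the share over all probes was 0.185%, and a p-value under 0.05 for 16, where it was 2.53%. In all 5 pairs 10 members were higher, against 4.69% of all probes, and none was lower in all 5. None of them passed the FDR limit in limma. Left out in turn, the replicates gave between 2 and 9 members with a p-value under 0.005, 2 of them without replicate 2, 3 or 5, with the slide in place of the replicate number as a block there were 0, without any block 3, and 0 by the paired test with the spread of each probe alone.

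The 6 genes with the smallest p-values comprise secreted killing enzymes, surface receptors and a transcription factor. The probes that measured them are shown by their first 30 bases, 5′ to 3′, with the position of the whole 60-base probe on the human genome build hg19 as the array files give it, because the signal depends on how well these human stretches pair with the macaque transcript. GZMB and GZMK encode granzymes B and K, proteases of the cytotoxic granule. KLRC1 and KLRC3 encode the receptors NKG2A and NKG2E, KLRF1 encodes the receptor NKp80, and EOMES encodes a T-box transcription factor of NK and memory CD8 T cells. KLRC1 and KLRC3 are close relatives in one gene cluster, and the longest run of bases that their probes share is 5. The position of the KLRC3 probe spans more bases than the probe holds, so that its bases are not contiguous on the genome. Whether a probe lies in coding or untranslated sequence is not given in the files.
GZMB, chr14:25100236-25100295, minus strand: aaccatgaaacgctactaactacaggaagc
GZMK, chr5:54329648-54329707, plus strand: gaggtcatgaatgtggtgttgccacaaagc
KLRC1, chr12:10603093-10603152, minus strand: attgttgggatcctgggaattatctgtctt
KLRC3, chr12:10568358-10569289, minus strand: aaatggtttggctttcaaacatgagataaa
KLRF1, chr12:9997324-9997383, plus strand: tacgtgatagtataaaccaatgtgacttca
EOMES, chr3:27758141-27758200, minus strand: atttgtaaattcttaagcaaatagaagccg

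The level of GZMK was 1.67, 1.72, 2.25, 2.62 and 0.95 on the day 5 arrays of replicates 1 to 5 and 2.97, 2.81, 3.80, 2.88 and 3.56 on the day 30 arrays. Every day 30 array lay above every day 5 array, which was the case for 0.25% of all probes. The difference was 1.36 (standard error 0.31, n = 5 pairs), a 2.57-fold higher signal, with an adjusted p of 0.587 from limma. GZMB read 6.27, 4.83, 5.38, 6.74 and 4.84 at day 5 and 6.65, 6.38, 6.59, 7.35 and 6.54 at day 30. It was higher in 5 of 5 pairs, and the groups overlapped because replicate 4 at day 5 lay above 4 of the day 30 arrays. The difference was 1.09 (standard error 0.24, with an adjusted p of 0.587 from limma).

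Among the receptors, KLRC1 stood at -3.66, -3.92, -3.23, -1.97 and -4.28 at day 5 and at -2.11, -1.87, -2.19, -1.41 and -2.41 at day 30, a difference of 1.41 (standard error 0.25). All 5 pairs went up, and replicate 4, the highest at both times, made the groups overlap. Its probe was well above background on 2 of the 5 day 5 arrays and on all 5 day 30 arrays. KLRC3 read -3.37, -4.15, -3.26, -3.08 and -4.18 at day 5 and -3.05, -2.76, -2.54, -2.57 and -2.46 at day 30. These groups did not overlap, but only 1 of the day 5 arrays was well above background, so the difference of 0.93 (standard error 0.24) rests on dim signals. KLRF1 was at -0.45, -2.93, -2.24, -0.74 and -1.77 at day 5 and at -0.08, -1.73, -0.50, -0.28 and -1.03 at day 30. Each pair was higher, by 0.90 on average (standard error 0.24), while the replicates of one time lay further apart than that.

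EOMES was measured at -0.74, -1.04, -0.04, -0.02 and -1.25 at day 5 and at -0.21, 0.26, 0.46, 0.74 and 0.37 at day 30. All pairs were higher, by 0.94 on average (standard error 0.22), and of the day 30 arrays the one of replicate 1 fell within the day 5 range. The first 3 tested genes of the list were higher in 4 of 5 pairs each, the exception being replicate 1 for GNLY and PRF1 and replicate 4 for KLRD1. GNLY, the granule protein granulysin, differed by 1.15 (standard error 0.34), PRF1, the pore-forming perforin, by 0.56 (0.27), and KLRD1, the CD94 partner chain of the NKG2 receptors, by 0.68 (0.24). A second probe of KLRD1 gave 0.71.

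**Figure D2:**
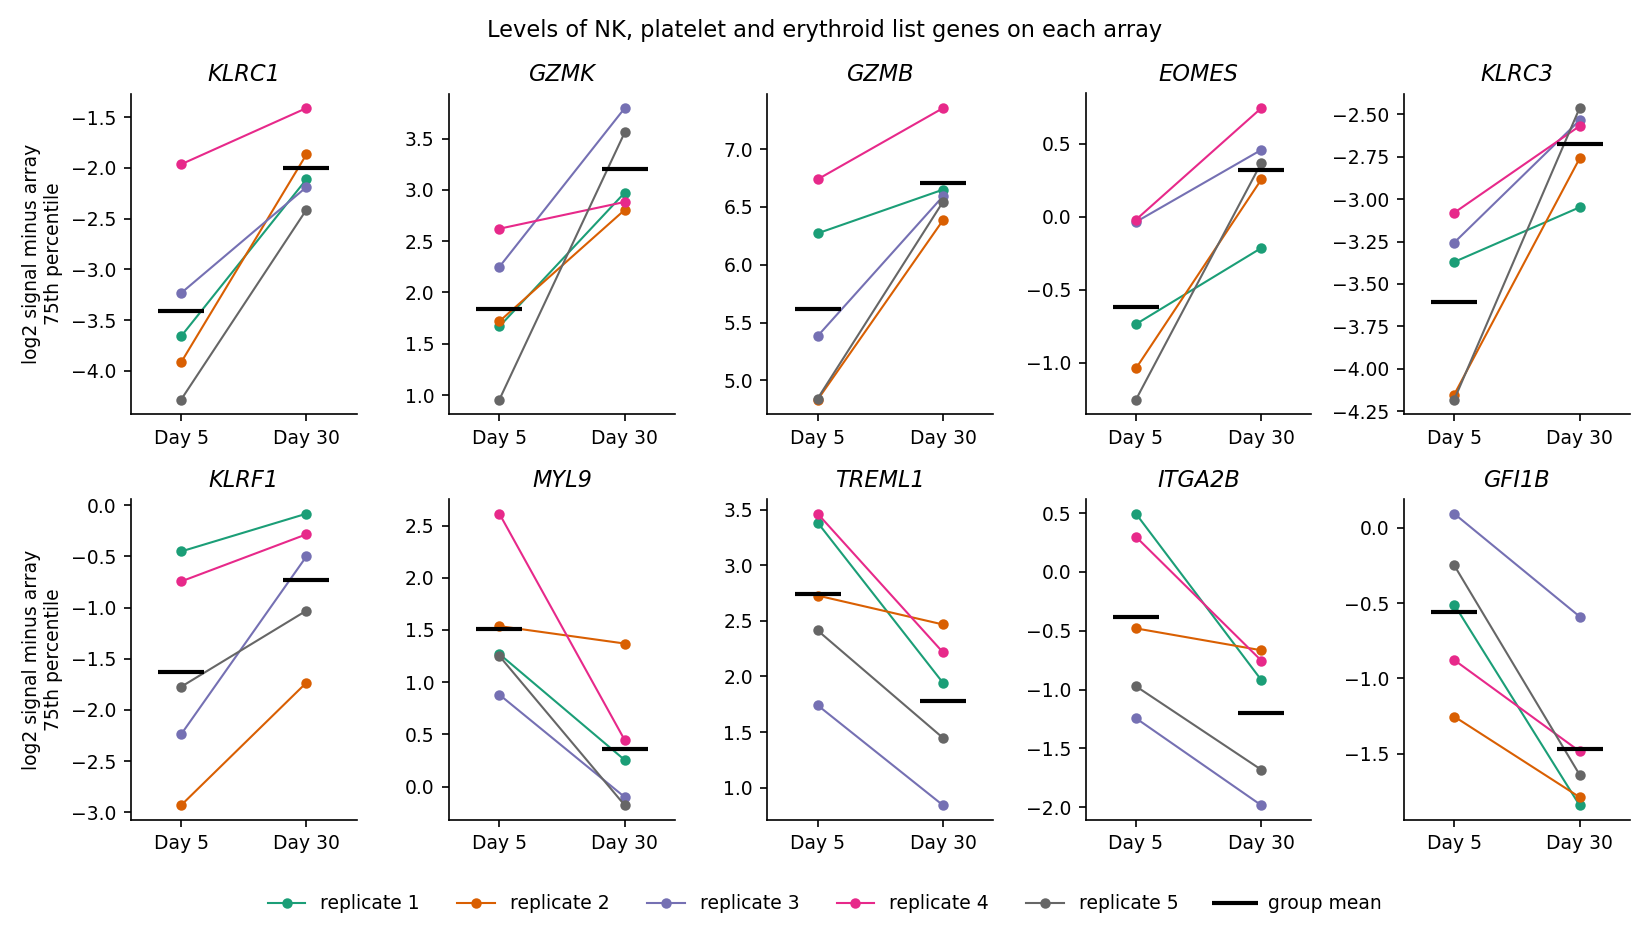
Levels of 10 genes on the day 5 and day 30 arrays (log2 signal minus the array's 75th percentile; each panel has its own vertical range), with a colored line for each pair of the same replicate number and a black bar for the group mean. The first 6 genes belong to the NK and cytotoxic list and are higher at day 30 in 5 of 5 pairs, and MYL9, TREML1, ITGA2B and GFI1B are lower in 5 of 5.

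The median difference of the NK and cytotoxic list was 0.01, 0.96, 0.61, 0.46 and 1.27 in pairs 1 to 5, above 0 in every pair but close to it in pair 1. Before irradiation GZMB had a mean level of 6.34 ± 0.42 (SD, n = 5), against 5.08 ± 0.56 at day 2, 5.61 ± 0.86 at day 5 and 6.71 ± 0.38 at day 30. The day 30 mean thus lay within 1 SD of the pre-irradiation mean. EOMES was at 0.52 ± 0.46, -0.88 ± 0.58, -0.62 ± 0.57 and 0.32 ± 0.35 at these times, again lowest at day 2. For the whole list, the level on each array was expressed as the median over members of their distance from the gene's mean over 20 arrays. This level had a mean of 0.39 before irradiation, -0.64 at day 2, -0.19 at day 5 and 0.43 at day 30. At day 5 the arrays split, with replicates 1 and 4 at 0.44 and 0.60 and replicates 2, 3 and 5 at -0.77, -0.27 and -0.96, whereas all 5 day 30 arrays lay between 0.18 and 0.89.

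The list of general T cell genes had no steady direction. Of its 29 tested genes, 10 were higher and 19 lower, with a median of -0.05, and 0 had a p-value under 0.005. The median was 0.11 without replicate 1, 0.01 without replicate 4 and -0.33 without replicate 5. With arrays scaled to their medians it was 0.12, beside 0.16 over all probes, since that scaling moves all probes alike. No test compared it with the NK and cytotoxic list. Its median was -0.73, -0.10, 0.02, -0.39 and 0.97 in pairs 1 to 5, so that the pairs with the lowest and the highest value were the same in both lists. The linear signals of its members, summed on each array, were 463.4, 498, 364.5, 738.3 and 261 times the array's 75th percentile at day 5 and 277.1, 480.5, 366.2, 539.3 and 492.3 times at day 30, with CCR7 the brightest. The part of T cells in the difference of the NK and cytotoxic list was not tested. CD3D, CD3E and CD3G, the chains of the T cell receptor complex, differed by -0.22, -0.47 and -0.14, of which CD3E was lower in 5 of 5 pairs.

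**Figure D3:**
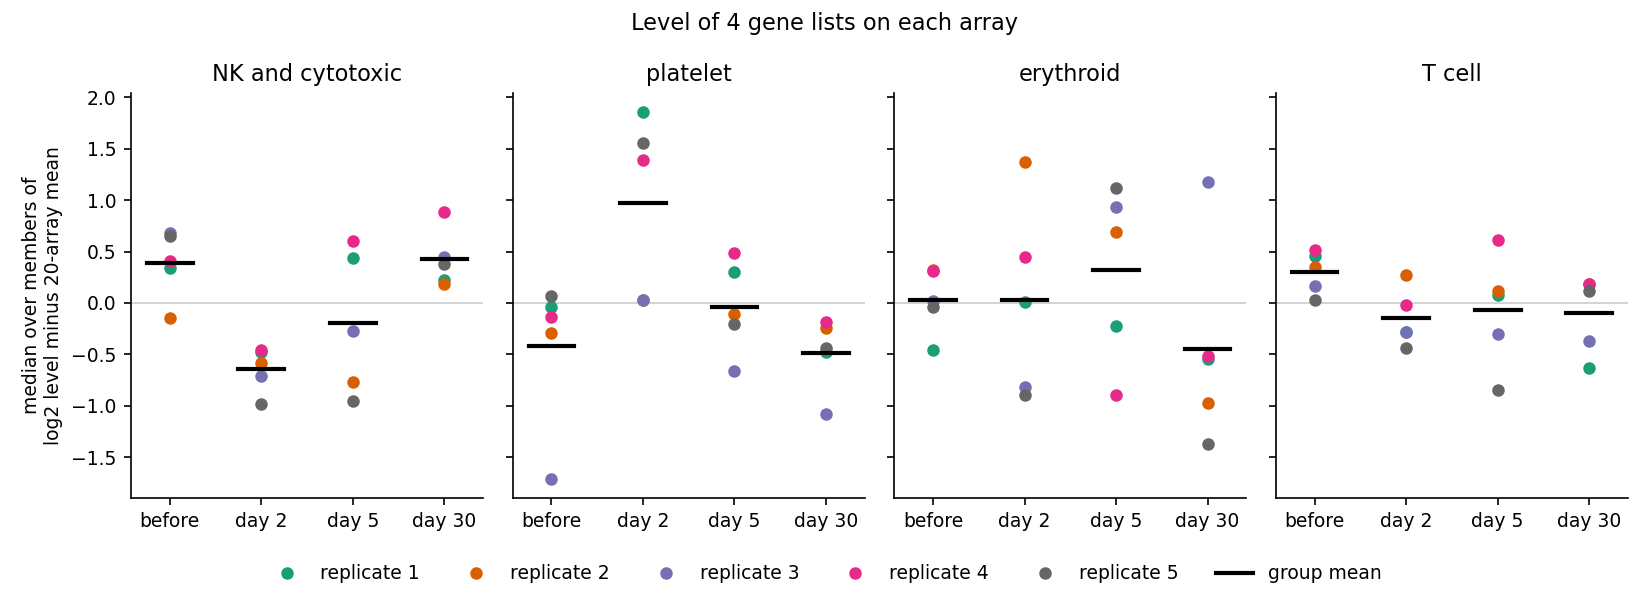
For 4 gene lists, each point is the level on 1 of the 20 arrays, as the median over members of the log2 level minus the gene's mean over 20 arrays, and black bars are means of the 5 arrays of a time. The NK and cytotoxic list is low on every day 2 array, low at day 5 in replicates 2, 3 and 5, and near the pre-irradiation level at day 30, the platelet list is highest at day 2, and the erythroid arrays of days 2, 5 and 30 spread widely.

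Platelet genes were lower at day 30. Of 26 tested members 22 were lower and 4 higher, with a median difference of -0.38, which was -0.21 with arrays scaled to their medians and -0.58 over the probes well above background on all 20 arrays, and the median was below 0 in each of the 5 pairs, at -0.62, -0.15, -0.64, -0.57 and -0.23. A p-value under 0.005 on the lower side was found for 3 members, against 0.436% of all probes, and a p-value under 0.05 for 11, against 5.77%. In all 5 pairs 10 members were lower, against 5.5% of all probes. Left out in turn, the replicates gave between 0 and 4 members with a p-value under 0.005, with 0 without replicate 1 or replicate 4, and 1 without replicate 3 or 5. The count was also 0 after scaling to array medians, without the replicate block and with the slide as a block.

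The members with the smallest p-values were a receptor chain, a granule membrane protein and a contractile protein, and their probes are shown again by their first 30 bases.
ITGA2B, chr17:42453290-42453349, minus strand: acaacaatggccctgggactgtgaatggtc
TREML1, chr6:41117398-41117457, minus strand: tctgctccaagcctgtgacatatgccacag
MYL9, chr20:35177541-35177600, plus strand: tgaggaagtggacgagatgtaccgggaggc

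ITGA2B encodes the alpha chain of the platelet fibrinogen receptor, and its level was 0.50, -0.48, -1.24, 0.30 and -0.97 at day 5 and -0.92, -0.67, -1.98, -0.75 and -1.68 at day 30. TREML1, a receptor of the alpha-granule membrane, read 3.38, 2.73, 1.74, 3.46 and 2.41 at day 5 and 1.94, 2.47, 0.84, 2.22 and 1.45 at day 30. MYL9, a myosin light chain of platelets and smooth muscle, was at 1.27, 1.54, 0.88, 2.61 and 1.25 at day 5 and at 0.25, 1.37, -0.10, 0.44 and -0.18 at day 30. In each gene all 5 pairs were lower, by the least in replicate 2, and the groups overlapped, since replicates of one time lay further apart than the times. The differences were -0.82 (standard error 0.21), -0.96 (0.21) and -1.15 (0.28), with an adjusted p of 0.587 each from limma.

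The chemokine genes of the alpha granule, which platelets carry in abundance, had smaller differences. PF4 was lower by 0.71 (standard error 0.22) in 5 of 5 pairs and PPBP by 0.55 (0.21) in 4 of 5. The probes of PF4 and PPBP were well above background on all 10 arrays. Both genes had been higher at day 2 than at any other time, PF4 at 7.28 against 5.79 before irradiation, 6.39 at day 5 and 5.68 at day 30. The level of the whole list averaged -0.42 before irradiation, 0.97 at day 2, -0.04 at day 5 and -0.48 at day 30. Replicate 3 was the lowest of the arrays before irradiation, at day 5 and at day 30, and the arrays of one time lay further apart than the means of day 5 and day 30. Summed linear signals of the members were 260.1, 198.1, 121.1, 326.8 and 209.7 times the array's 75th percentile at day 5 and 171.1, 153.1, 104.9, 159.2 and 126.4 times at day 30.

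Erythroid genes, which in blood report on young red cells that still hold RNA, had the largest SD of pair medians of the lists, 1.38. The neutrophil granule list followed with 1.16. Of 25 tested members 24 were lower at day 30 and 1 higher, with a median of -0.69. In all 5 pairs 5 were lower, against 5.5% of all probes, and 1 had a p-value under 0.005, against 0.436%. The median was -0.26, -1.90, 0.54, 0.32 and -2.56 in pairs 1 to 5, so that pairs 2 and 5 carried the difference and pairs 3 and 4 ran the other way. Without replicate 2 the median was -0.39, and without replicate 5 it was -0.33. SLC4A1, the anion exchanger of the red cell membrane, shows the spread, with 1.81, 1.88, 3.68, 1.84 and 3.79 at day 5 and 0.86, 0.04, 3.61, -0.02 and -1.04 at day 30. It was lower in 5 of 5 pairs, by 0.07 in replicate 3 and by 4.83 in replicate 5. The mean difference was -1.91 (standard error 0.58, adjusted p = 0.587 from limma), and the other 2 probes of the gene gave -1.40 and -1.23. ALAS2, the first enzyme of heme synthesis in red cells, differed by -0.87 (0.36) and AHSP, the chaperone of alpha globin, by -0.46 (0.49). Globin transcripts had been depleted from the RNA before hybridization, yet HBB, the beta globin gene, was the brightest of the list and differed by -0.32. The part of the depletion in the spread was not tested.

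The member with the smallest p-value was GFI1B, a repressor that acts in red cell and platelet precursors alike. Its levels were -0.51, -1.25, 0.09, -0.88 and -0.25 at day 5 and -1.84, -1.79, -0.59, -1.48 and -1.64 at day 30. All 5 pairs were lower, by 0.91 on average (standard error 0.20), and replicate 3 was the highest at both times. Before irradiation the mean level was -1.31 ± 0.22 (SD, n = 5) and at day 2 it was -0.46 ± 0.62, so that the means of days 2 and 5 were both above those of the other times.

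Genes of innate immune cells leaned to the higher side, but none of their list medians was above 0 in all 5 pairs. Of the 22 tested genes of mature neutrophils 20 were higher and 2 lower, with a median of 0.25, but the pair medians ranged from -0.39 to 1.04 and 0 members were higher in all 5 pairs, against 4.69% of all probes. The bacterial response list, with sensors and adaptors of the Toll-like receptor and inflammasome pathways, had 21 of 24 genes higher and a median of 0.25, and 4 of 5 pairs were above 0. On the higher side 4 of its genes had a p-value under 0.05, against 2.53% of all probes, and on the lower side 0. In all 5 pairs 2 were higher, against 4.69%. TLR4, the receptor of bacterial lipopolysaccharide, differed by 0.57 (standard error 0.21) and was higher in 5 of 5 pairs, whereas its co-receptor LY96 differed by 0.02 (0.50) and the adaptor MYD88 by -0.03 (0.22). Neutrophil granule genes had a median of 0.28, with pair medians from -1.67 to 1.55. Without replicate 1 the medians of the mature neutrophil, bacterial response and neutrophil granule lists were 0.07, 0.10 and -0.02. After normexp background correction they were 0.17, 0.08 and 0.16, beside a median of 0.08 over all probes. Thus in LTF, the iron-binding lactoferrin of secondary granules, the day 5 levels were -1.72, -2.13, -0.99, -2.75 and 1.21 and the day 30 levels 0.51, -0.60, 0.63, -3.46 and -1.25. Replicates 1, 2 and 3 were higher at day 30 and replicates 4 and 5 lower. MPO, the myeloperoxidase of primary granules, differed by 0.50 (standard error 0.43), and AZU1, the antimicrobial azurocidin, by -0.76 (0.36) and was lower in 5 of 5 pairs.

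In the monocyte and macrophage list 13 of 18 genes were higher and 5 lower, with a median of 0.20 that was 0.12 without replicate 4 and 0.45 without replicate 5. CD163, the scavenger receptor for hemoglobin, was higher by 0.60 (standard error 0.27), CSF1R, the receptor of the macrophage growth factor, by 0.39 (0.18), and CD14, the co-receptor of lipopolysaccharide, by 0.08 (0.22). Genes of complement C1q ran the other way, and they are named here after their values were seen. C1QA differed by -1.15 (0.36) and was lower in 5 of 5 pairs, and C1QB by -1.06 (0.37) in 4 of 5. For C1QC, 2 day 5 arrays and no day 30 array gave a signal well above background, so that no fold can be given.

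**Figure D4:**
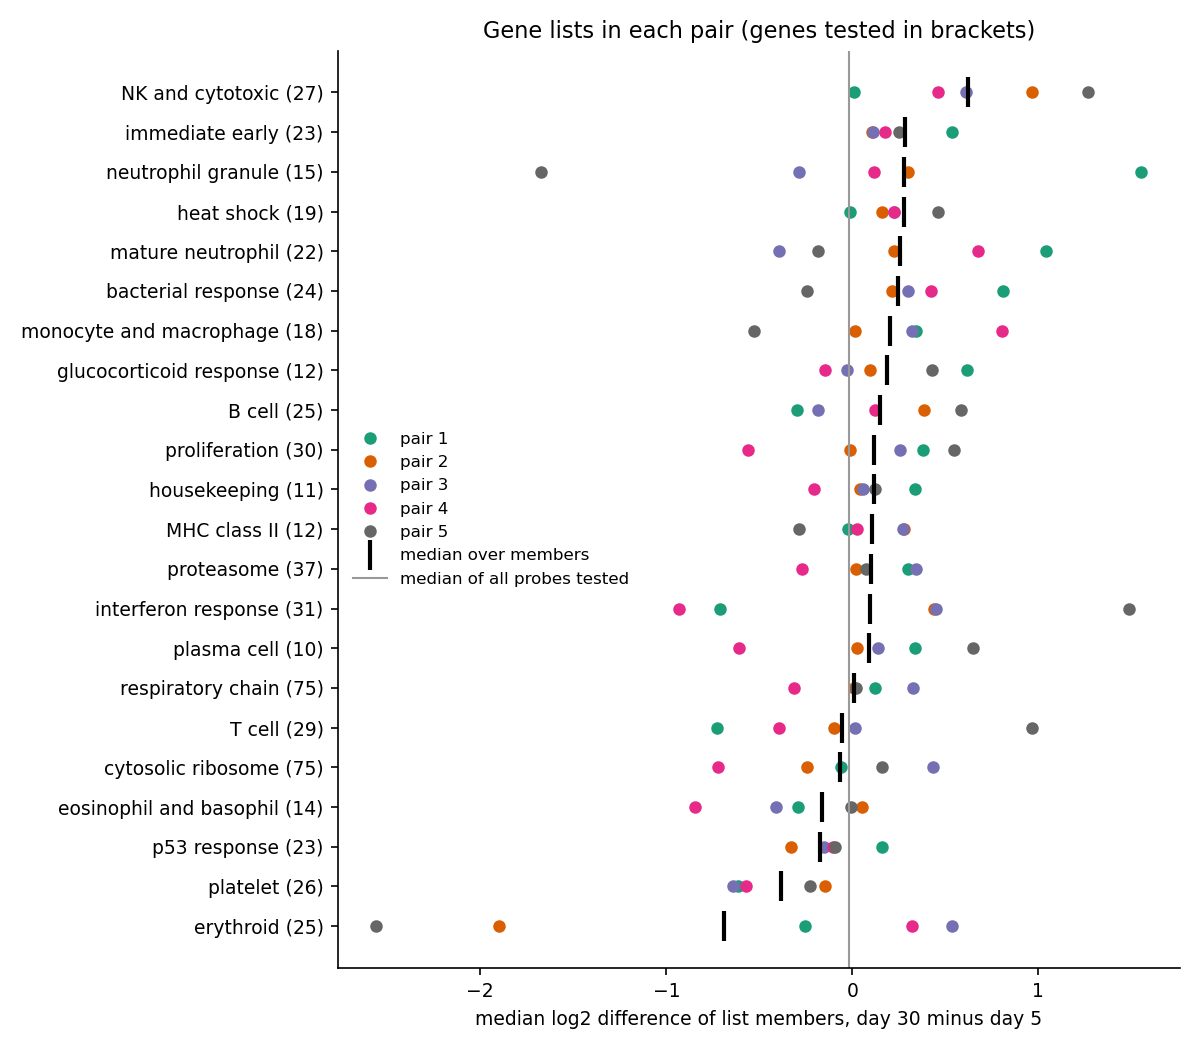
Median log2 difference, day 30 minus day 5, of the members of 22 gene lists, with 1 colored point for each of the 5 pairs, a black bar for the median of the members' mean differences and a grey line for the median of all probes tested. Only the NK and cytotoxic and the immediate early lists lie above 0 in 5 of 5 pairs and only the platelet list below 0 in 5 of 5, while erythroid, neutrophil granule and interferon response lists spread over more than 2 units.

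Among lymphocyte lists, the B cell list had 19 of 25 genes higher and 6 lower with a median of 0.15, which ran from 0.05 without replicate 2 or 5 to 0.30 without replicate 3 and was 0.32 in the deposited values. A p-value under 0.05 was found for 5 members on the higher side, against 2.53% of all probes, and for 2 on the lower, against 5.77%. CD79A and CD79B, which encode the signaling chains of the B cell receptor, differed by 0.01 (standard error 0.21) and -0.01 (0.18). The plasma cell list had 6 of 10 genes higher, and the MHC class II list, with the genes of antigen presentation to CD4 T cells, 8 of 12. By the brightest probe of each gene, 0 members of either had a p-value under 0.005. Dimmer probes of MHC class II genes are given here after their values were seen. For HLA-DQB1 the brightest gave 0.03 and the dimmer ones 0.16, 0.84 and 0.15, with the one at 0.84 under that limit. For HLA-DPB1 the brightest gave 0.23 and the dimmer ones 0.87, 0.02, 0.26 and 0.31. Dimmer probes of HLA-DPA1 and HLA-DQA1 gave 0.21 and 0.79, and those of HLA-DMA, HLA-DOA and CIITA -0.10, -0.33 and -0.31. The median of MHC class II was 0.11, also with the mean of all tested probes of a gene, and -0.08 after normexp background correction. HLA-DRA differed by 0.01 (0.27) and CD74, the invariant chain, by -0.06 (0.21). CIITA, the transactivator of these genes, differed by 0.38 (0.19) and was higher in 5 of 5 pairs. Eosinophil and basophil genes were lower in 13 of 14 cases, with 0 members below a p-value of 0.05. Their median of -0.16 was -0.35 without replicate 5. It was 0.01 with arrays scaled to their medians and 0.08 after normexp background correction, beside 0.16 and 0.08 over all probes.

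Immediate early genes, the transcription factors and phosphatases switched on within minutes of a stimulus, were higher in 19 of 23 cases with a median of 0.28, and their median was higher in each pair, from 0.11 to 0.53. With arrays scaled to their medians the list median was 0.45, beside 0.16 over all probes. After normexp background correction it was 0.19, beside 0.08 over all probes. A p-value under 0.05 on the higher side was found for 4 of them, against 2.53% of all probes, and 7 were higher in all 5 pairs, against 4.69%, while 0 had a p-value under 0.005. These counts take the brightest probe of each gene. For ATF3, named after its values were seen, that probe gave 0.49 and the dimmer ones -0.17, -0.22 and -0.02. For KLF6, named likewise, it gave 0.42 and the dimmer ones -0.20 and -0.18. JUN, a subunit of the AP-1 factor, differed by 0.56 (standard error 0.21) in 5 of 5 pairs, while FOS, its partner, differed by 0.49 (0.31) and EGR1 by 0.15 (0.17). Heat shock genes were higher in 15 of 19 cases, with a median of 0.28 that was 0.11 without replicate 5. It was 0.45 with arrays scaled to their medians and 0.17 after normexp, beside 0.16 and 0.08 over all probes. In all 5 pairs 4 of them were higher, against 4.69% of all probes, and 1 had a p-value under 0.005 on the higher side, against 0.185%. At a p-value under 0.05 there were 2 higher members, against 2.53% of all probes, and 2 lower ones, against 5.77%. The next genes are named after their values were seen. HSF1, on the lower side, differed by -0.66, and a second probe of it gave -0.01. HSF2 differed by -0.64 and was well above background on 2 day 5 arrays and 0 day 30 arrays. HSPH1, on the higher side, gave 0.57 and 0.42 by its 2 probes. HSPA1B, an inducible chaperone of the HSP70 family, read 1.62, 3.05, 1.64, 0.48 and 2.00 at day 5 and 2.55, 3.88, 1.86, 2.56 and 3.07 at day 30. It was higher in 5 of 5 pairs, by 1.03 (0.26), with overlapping groups. HSPA1A, a close relative with a probe of its own, differed by 0.38 (0.77). That probe was well above background on 3 day 5 and 4 day 30 arrays. Whether either probe binds both transcripts was not tested. The pairs of HSPA1A did not go one way.

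The p53 response list, which holds targets switched on by DNA damage, was lower in 14 of 23 genes and higher in 9, with a median of -0.17. That median was 0.06 after normexp background correction and 0.01 without replicate 4. CDKN1A, the p21 inhibitor of the cell cycle, differed by -0.62 (standard error 0.27), with 3 of 5 arrays well above background at each time and 0.07 after normexp, MDM2, the ligase that degrades p53, by -0.21 (0.19), and FDXR, a mitochondrial reductase used in radiation dosimetry, by -0.18 (0.23). A p-value under 0.05 on the lower side was found for 3 members, against 5.77% of all probes, namely DDB2, PHLDA3 and TNFRSF10B, which are named here after their values were seen. DDB2 and PHLDA3 differed by -0.54 and -0.51. TNFRSF10B, a death receptor, was well above background on 3 day 5 arrays and no day 30 array. In these samples its mean signal was at least 1.67-fold higher at day 5 (adjusted p = 0.587 from limma). Such bounds set the mean of the bright group against a floor on each array of the dim group, taken as the lowest signal that was still marked as above background or the probe's own signal, whichever was higher. They apply to the processed signals without normexp background correction, and they do not take in the spread between samples.

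Interferon response genes differed between replicates more than between times. Of 31 tested genes 19 were higher and 12 lower, with a median of 0.10, and the pair medians were -0.71, 0.44, 0.45, -0.93 and 1.49. The median ran from -0.21 without replicate 5 to 0.42 without replicate 4. ISG15, a ubiquitin-like protein and typical interferon target, read 4.54, 1.71, 3.60, 3.73 and 1.01 at day 5 and 2.38, 2.33, 3.98, 0.97 and 3.40 at day 30. Replicates 1 and 4 were lower at day 30 and replicates 2, 3 and 5 higher. MX1, an antiviral GTPase, followed the same signs with a mean difference of 0.02 (standard error 0.60).

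The lists of general cell functions lay close to the median of all probes. The 75 cytosolic ribosome genes had a median of -0.07, the 75 respiratory chain genes 0.01, the 37 proteasome genes 0.10, the 30 proliferation genes 0.12 and the 11 housekeeping genes 0.12. In the same order 22, 38, 25, 25 and 8 genes were higher. The share was 47.6% over all probes and 52.8% over genes with 1 probe each. In these 5 lists 0 members had a p-value under 0.005, and the median of each took the other sign in at least 1 of the alternatives run. In the glucocorticoid response list 10 of 12 genes were higher, with a median of 0.18 that was 0.34 without replicate 4, 0.11 without replicate 5 and 0.40 in the deposited values, and 0 members with such a p-value. ACTB, GAPDH and TBP differed by -0.08 (standard error 0.16), 0.02 (0.17) and 0.12 (0.17).

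Over all genes, the 12 with the largest difference on the higher side, among probes with a p-value under 0.005 and the same sign in all pairs, included SAMD3, MICU3, CABLES1, KLRC1, GZMK, TP53INP2, FZD1, ZNF503, NUAK1, JAKMIP1 and KCNE4. The differences of the 12 ran from 1.15 to 1.66, and 4 of the 12 were well above background on all 10 arrays. SAMD3 read -2.48, -5.15, -1.92, -1.37 and -5.49 at day 5 and -2.07, -2.31, -0.54, -0.68 and -2.50 at day 30. Its pairs 2 and 5, the lowest at day 5, differed most, and before irradiation its mean was -1.48. JAKMIP1, a microtubule-binding partner of Janus kinases, had a mean of 0.47 before irradiation, -0.73 at day 2, -0.55 at day 5 and 0.68 at day 30, the same order as the NK and cytotoxic list.

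CABLES1, which binds cyclin-dependent kinases, did not follow that order. Its mean was -1.54, -1.54 and -1.55 before irradiation and at days 2 and 5, and -0.08 at day 30. The day 5 arrays read -1.36, -1.68, -1.16, -2.75 and -0.81 and the day 30 arrays 0.81, -1.01, 0.23, 0.04 and -0.49. Only replicate 2 of the day 30 arrays lay within the day 5 range, and the difference was 1.47 (standard error 0.36, adjusted p = 0.587 from limma). FZD1, a receptor for Wnt ligands, was similar, with means of -2.36, -2.39, -2.66 and -1.38 and a difference of 1.28 (0.28).

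The 12 genes with the largest difference on the lower side were mostly dim. They were ANKRD20A19P, LINC00511, MYL5, MAT1A, TSPY10, FLNC, LTC4S, FLJ13224, NT5C1A, RUNDC3A, NIPAL4 and EHD3, with fitted differences from -3.43 to -1.45, and 1 of the 12 was well above background on all 10 arrays. For 8 of them no day 30 array was well above background, which leaves only a bound. In the processed signals without further correction, the day 5 signal was at least 2.27-fold higher for LINC00511, 2.00-fold for MAT1A and 1.65-fold for FLNC. It was at least 1.42-fold higher for LTC4S, 1.22-fold for NIPAL4 and 1.05-fold for FLJ13224, which was well above background on 1 day 5 array. No fold can be given for TSPY10 and EHD3. After normexp background correction with an offset, the median difference of these 12 genes was 0.01 in place of -1.60, and 6 of them took the other sign. FLNC, LTC4S, NIPAL4 and FLJ13224 were among those 6. LINC00511 and MAT1A kept their sign, at only -0.08 and -0.07. None of the bounds given here thus holds under that correction. The 12 genes of the higher side kept their sign under that correction, with a median of 0.56 in place of 1.30.

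Of these 12, only RUNDC3A was well above background on all 10 arrays. Its levels were -1.13, -0.16, 1.49, -1.86 and 0.70 at day 5 and -2.25, -2.30, 0.26, -2.03 and -2.21 at day 30. All 5 pairs were lower, by 1.51 on average (standard error 0.36), and replicate 3 was the highest at both times, as in the erythroid list at day 30. ANKRD20A19P, a pseudogene transcript, read -1.31, -1.69, -1.08, -0.62 and -1.86 at day 5 and -5.53, -5.62, -4.48, -5.62 and -2.44 at day 30. Its groups did not overlap, which held for 0.381% of all probes on the lower side, and of the day 30 arrays only that of replicate 5 was well above background. The fitted difference was -3.43 (standard error 0.55, adjusted p = 0.587 from limma). After normexp background correction it was -0.53. Without replicate 5, limma called 2 probes, this one and that of TTTY19, which is named here after its values were seen, and the remaining day 30 arrays of ANKRD20A19P were then all not well above background.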

How the data were processed

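Per the labels and the methods, blood was drawn into PAXgene tubes, globin transcripts were depleted, and Cy3-labeled RNA was hybridized to 20 Agilent Whole Human Genome 4x44K v2 arrays. The authors deposited each array's scanner output, in which the processed signal is an intensity on a linear scale, from which Feature Extraction (12.0.2.2 in the file headers, 10.7 per the labels) had subtracted the background, with no scaling of one array to another. A deposited table of log2 values covers 5884 probes and served here only as an alternative.

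Control spots and spots marked as outliers were left out, spots of 1 probe were averaged on the log2 scale, and each array's 75th percentile was subtracted. Probes well above background on at least 5 of 20 arrays, with values in at least 4 pairs, were compared in limma 3.58.1 (R 4.3.3) with the replicate number as a block. Calls needed a p-value under 0.005 with an FDR, by Benjamini-Hochberg over all probes, under 10%, the thresholds of the study's methods. Samples with the same number deviated together from their group means (correlation 0.104 to 0.397 in the 5 pairs, median of the other combinations -0.104), and the methods state a pairing by animal. Of the 5 day 5 arrays, 3 correlated best with their own number, and the lowest of the same-number values was that of pair 5, the only pair on one slide. Nothing in the labels ties the arrays to animals, so p-values measure the spread between these samples. The number of arrays limits the precision. Tested on 19948 simulated probes with the design of this comparison, limma called 39 of 100 probes changed by 1 and 89 of 100 changed by 2 on the log2 scale, and 15 unchanged ones. The simulated noise was independent between probes, with the spread of each probe taken from these 5 pairs. On the real arrays genes vary together, so these rates need not hold for them.

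Genes of 22 lists entered with their brightest tested probe. Named genes are those of each list with a p-value under 0.005, its first 3 tested genes, and the 12 largest differences in each direction with a p-value under 0.005 and the same sign in 5 pairs. Some genes that these rules name are not reported here. The comparison, the lists and the rules were chosen with earlier results of these data known. Of 13586 gene symbols 11864 occur in the rhesus tables. Probe positions are those of hg19 in the file headers, and differences between human and macaque sequence were not used here. Alternatives were median scaling, quantile normalization, normexp, other filters, the deposited log2 values, other blocks and fits, a paired t-test of each probe (the methods name a class comparison paired by animal, with no formula), and each replicate left out. Counts of list members under them were added after the data were seen. Tables and figures were made in Python 3.11.15 with pandas 2.3.3 and matplotlib 3.10.9.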

Additional observations from a re-analysis of the deposited data

Results flagged for a closer look

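In 220 groups of 5 values, 11 had a highest or lowest value whose gap to the nearest other, divided by the range of the group, was above Dixon's critical value of 0.71, and chance gives about 1 in 20, or 11. Replicate 4 was the highest of the day 5 arrays for MICU3, at -3.41 with the others from -6.07 to -5.57, and for NUAK1, at -0.83. It was also the highest of the day 30 arrays for NUAK1, at 0.08, and for GZMB, at 7.35 with the others from 6.38 to 6.65. Replicate 3 was the highest at day 30 for RUNDC3A, at 0.26, and for GFI1B, at -0.59. CD3E was highest in day 5 replicate 1, at 1.34, and CD74 in day 5 replicate 5, at 2.74. Of the day 30 arrays, replicate 1 was lowest for CIITA, at 3.31, and highest for GAPDH, at 5.07. The share of spots well above background was 67.3% on the array of day 5 replicate 3, with the other day 5 arrays from 55.9% to 58.5%.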

How the results depend on the processing

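The count of called probes was 0 in limma, 1 with all 20 arrays in one fit (FLNC, adjusted p = 0.0888 from limma), 1 by a paired t-test of each probe (TMEM88B, adjusted p = 0.0596), and between 0 and 2 with each replicate left out. Probes with a p-value under 0.005 numbered 124, against 211 after normexp, 30 of the 5742 probes tested in the deposited log2 values, 48 without the replicate block, 286 with all 20 arrays, 75 with the slide as a block and 70 to 175 with a replicate left out, fewest without replicate 1. Those with a p-value under 0.05 numbered 486 of 5742 in the deposited values, 1068 without the replicate block and 892 to 2306 with a replicate left out. NK and cytotoxic members with a p-value under 0.005 numbered 6, against 3 without the replicate block, 10 with all 20 arrays, 0 with the slide as a block, 0 by the paired t-test and 2 to 9 with a replicate left out. The platelet count of 3 was 0 after median scaling, 5 after normexp, 1 without the filter on dim probes, 0 without the replicate block, 1 with all 20 arrays, 0 with the slide as a block, 1 by the paired t-test and 0 to 4 with a replicate left out. The p53 median of -0.17 was 0.0602 after normexp and between -0.2385 and 0.0052 with a replicate left out. The heat shock median was 0.45 after median scaling and 0.17 after normexp, beside 0.16 and 0.08 over all probes. The lower counts in the deposited values go with the fewer probes tested, and the cause of the other moves was not tested. The replicate block leaves the differences as they are, and the list medians kept their values without it. The medians of the NK and cytotoxic, platelet and erythroid lists kept their sign under every alternative run. Over all lists and alternatives, 29 of 373 medians took the other sign, as did 81 of 1500 values of named genes. Of these, 4 medians and 11 gene values came from median scaling, which moves all probes alike. Signals near background, as for most of the largest differences on the lower side, limit what these arrays can show.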
